A study of Mus musculus with 48 samples.

Results

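The Hox genes, which encode homeodomain transcription factors, were followed through every group of a mouse embryonic stem cell (mESC) series on *Nrde2*, *Ccdc174* and *Mtrex*. All 39 protein-coding genes named Hoxa, Hoxb, Hoxc or Hoxd with a number were taken, of 55335 genes in the tables. They are 11 genes of the Hoxa cluster on chromosome 6, 10 of Hoxb on chromosome 11, 9 of Hoxc on chromosome 15 and 9 of Hoxd on chromosome 2. The rule used their names alone.

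Hox genes give cells their position along the head-to-tail axis of the embryo, with low-numbered (anterior) genes active nearer the head and high-numbered (posterior) genes nearer the tail. The genes of a cluster lie in the order of their numbers, and genes with the same number in different clusters are paralogs. In undifferentiated mESCs the clusters are known as targets of Polycomb repression, and they are opened in sequence during differentiation by signals that include retinoic acid and by regulators such as the Cdx proteins.

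NRDE2 is a nuclear RNA-binding protein that associates with the RNA helicase MTREX, a cofactor of the nuclear exosome, and CCDC174 is a nuclear protein studied with it. All cells were male mESCs of mixed 129 and C57BL/6 background with Cre-ERT2 in *Rosa26*, grown with serum, LIF and the 2i inhibitors. The *Nrde2*-KO and *Mtrex*-KO cells were conditional lines given 100 nM 4-hydroxytamoxifen (4OHT) for 4 and 3 days, and each WT was the same conditional line. In *Ccdc174-dTAG* cells, CCDC174 fused to the FKBP12F36V degron was depleted with 500 nM dTAG-13 for 24 h, and their WT carried the same fusion. *Nrde2d200* cells lacked the first 200 amino acids of NRDE2 and *Nrde2-D174R* cells carried a point mutation. Both were edited lines, they are compared with the WT libraries used for *Nrde2*-KO, and a line of this kind cannot be told apart from its edit. Cycloheximide (CHX), which blocks translation, was given at 0.1 mg/ml for 4 h to *Ccdc174-dTAG* cells and their WT, and to the *Nrde2*-KO and WT cells of a second experiment. No WT cells treated with 4OHT or with a vehicle were analysed here. Each of the 14 RNA-seq groups had 2 libraries, and *Nrde2*-KO and WT had 2 Ribo-seq libraries each. The labels do not say that replicates came from separate cultures, so p-values measure the spread between these libraries only.

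The RNA-seq libraries held 28683644 to 36272309 reads in genes and the Ribo-seq libraries 3475051 to 5035940. *Mtrex*-KO replicate 1 stood apart, with 72.1% of its total in genes. *Nrde2* mRNA was lower in both untreated *Nrde2*-KO experiments (log2 fold change -1.04 and -1.40) and *Mtrex* mRNA in *Mtrex*-KO (-1.39). With CHX the *Nrde2* level was not lower in *Nrde2*-KO, at 257.3 and 248.8 normalized CPM against 242.4 and 224.2 in WT. *Ccdc174* mRNA does not check depletion of the protein. Pluripotency markers summed to 4305 to 6198 normalized CPM without CHX and to 2851 to 3710 with CHX. Without CHX, sums over lineage marker lists were 51.0 to 148 for neural, 50.1 to 479 for trophectoderm, 11.9 to 58.5 for primitive streak and posterior mesoderm, 3.49 to 18.0 for endoderm and 1.89 to 4.00 for fibroblast markers.

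Levels are given as normalized CPM, the deposited depth-scaled counts (CPM) divided by a size factor per library, in the order replicate 1 and replicate 2. A gene was called where its limma adjusted p was under 0.01 and its log2 fold change exceeded 1 in size. Genes averaging under 0.5 CPM were left out. Of the 39 Hox genes, 26 passed this filter over the 20 libraries without CHX. The 13 that did not were *Hoxa2*, *Hoxa4*, *Hoxa6*, *Hoxb1*, *Hoxb2*, *Hoxb3*, *Hoxb5*, *Hoxb6*, *Hoxb8*, *Hoxd1*, *Hoxd3*, *Hoxd4* and *Hoxd12*. Over all comparisons 30 Hox genes were tested at least once and 17 of them were called at least once, against 41.4% of the 17004 genes tested at least once. The other 9 were never tested. In bulk RNA, a gene transcribed in few cells cannot be told apart from a low level in every cell.

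The series was designed around splicing at weak 5′ splice sites, so the exon-intron junctions of the members that the results turn on are shown. Each line gives 15 exonic bases and 25 intronic bases of the coding intron in GRCm38 with RefSeq introns, and the capitals mark the first 6 intronic bases. The first 4 are the genes of paralog group 9, among them *Hoxb9*, and *Hoxb13* is shown because its junction matched the consensus, CAG followed by GTAAGT, at all 9 bases.
Hoxa9, chr6:52225503-52225542, minus strand: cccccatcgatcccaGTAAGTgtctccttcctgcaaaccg
Hoxb9, chr11:96272044-96272083, plus strand: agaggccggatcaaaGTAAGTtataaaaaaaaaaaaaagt
Hoxc9, chr15:102982176-102982215, plus strand: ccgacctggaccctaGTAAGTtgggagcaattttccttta
Hoxd9, chr2:74698819-74698858, plus strand: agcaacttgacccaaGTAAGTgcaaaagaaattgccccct
Hoxb13, chr11:96195032-96195071, plus strand: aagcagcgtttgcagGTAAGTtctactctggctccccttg

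All 4 genes of paralog group 9 had the intronic bases GTAAGT after an exon that ended in A, where the consensus has G. Of the 39 Hox coding introns, 7 followed an exon ending in A (*Hoxa9*, *Hoxb6*, *Hoxb9*, *Hoxc9*, *Hoxc11*, *Hoxd1* and *Hoxd9*), against 9.64% of 192883 distinct RefSeq 5′ splice sites. Counted over the 9 bases from the third last exonic to the sixth intronic, 22 Hox sites matched the consensus at 7 or more, against 45.3% of all sites. The *Hoxb9* intron is 2565 bases long (chr11:96272059-96274623), within the Hox range of 159 to 5251. Reads per gene do not separate spliced from unspliced RNA, so no value below measures the use of these sites.

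In WT cells without CHX the Hox genes were low but unevenly so. Levels of different genes are compared here only per kb of exon. In the first *Nrde2* WT, the highest were *Hoxc13* at 4.16, *Hoxa10* at 3.04, *Hoxb13* at 3.02, *Hoxd13* at 2.87 and *Hoxc12* at 2.83 normalized CPM per kb. The most posterior gene was thus the highest of its cluster in Hoxb, Hoxc and Hoxd, whereas *Hoxa13* was at 0.473. Of the low-numbered members, *Hoxa2* was at 0.144, *Hoxb2* at 0.060 and *Hoxd1* at 0.103, but *Hoxb4* was at 0.494 and *Hoxc4* at 1.14, above *Hoxa13*. No read of *Hoxb5* or *Hoxb6* was found in any WT library without CHX. *Hoxd3* and *Hoxd4* share 62.4% and 52.3% of their exonic bases with neighbouring genes of the same strand, and their counts are uncertain.

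The WT lines also differed from each other. *Hoxa7* was at 6.33 and 7.21 in the first *Nrde2* WT, at 9.07 and 8.35 in the second, at 22.0 and 30.0 in *Mtrex* WT and at 2.27 and 2.501 in *Ccdc174* WT. *Hoxa10* was at 10.6 and 9.30, 12.3 and 11.7, 21.6 and 32.7, and 1.53 and 1.81 in the same order. The 4 WT groups did not overlap for either gene. *Hoxc8* was at 1.27 and 1.16 in the first *Nrde2* WT and at 0.0821 and 0.0275 in *Ccdc174* WT. *Hoxd9* varied less and stayed between 2.30 and 3.40 in all 8 WT libraries without CHX. Line, clone and experiment cannot be told apart here.

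**Figure D1:**
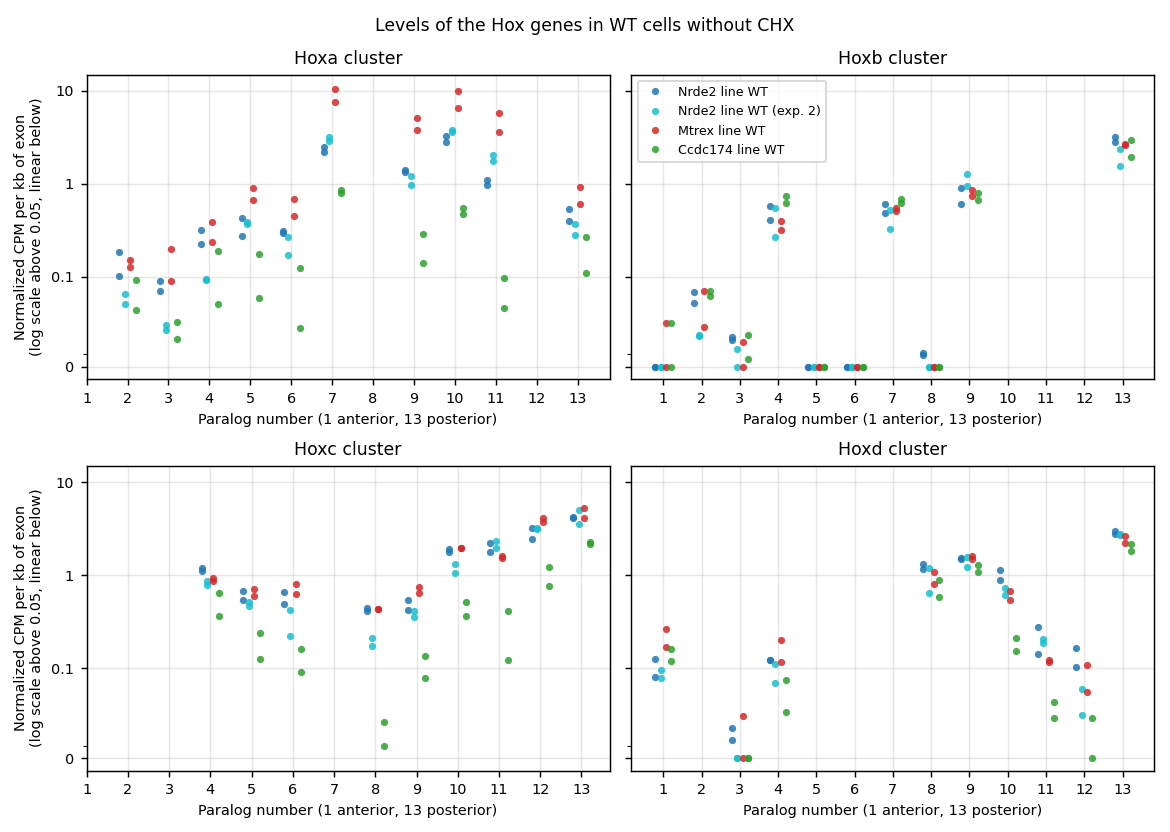
Normalized CPM per kb of exon (vertical axis, logarithmic above 0.05 and linear below) against paralog number, with 1 panel per cluster and 1 point per WT library without CHX, coloured by line. The Hoxa7 to Hoxa11 genes separated the lines, with *Mtrex* WT highest and *Ccdc174* WT lowest, while Hoxb13 and Hoxd13 lay close together.

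**Figure D2:**
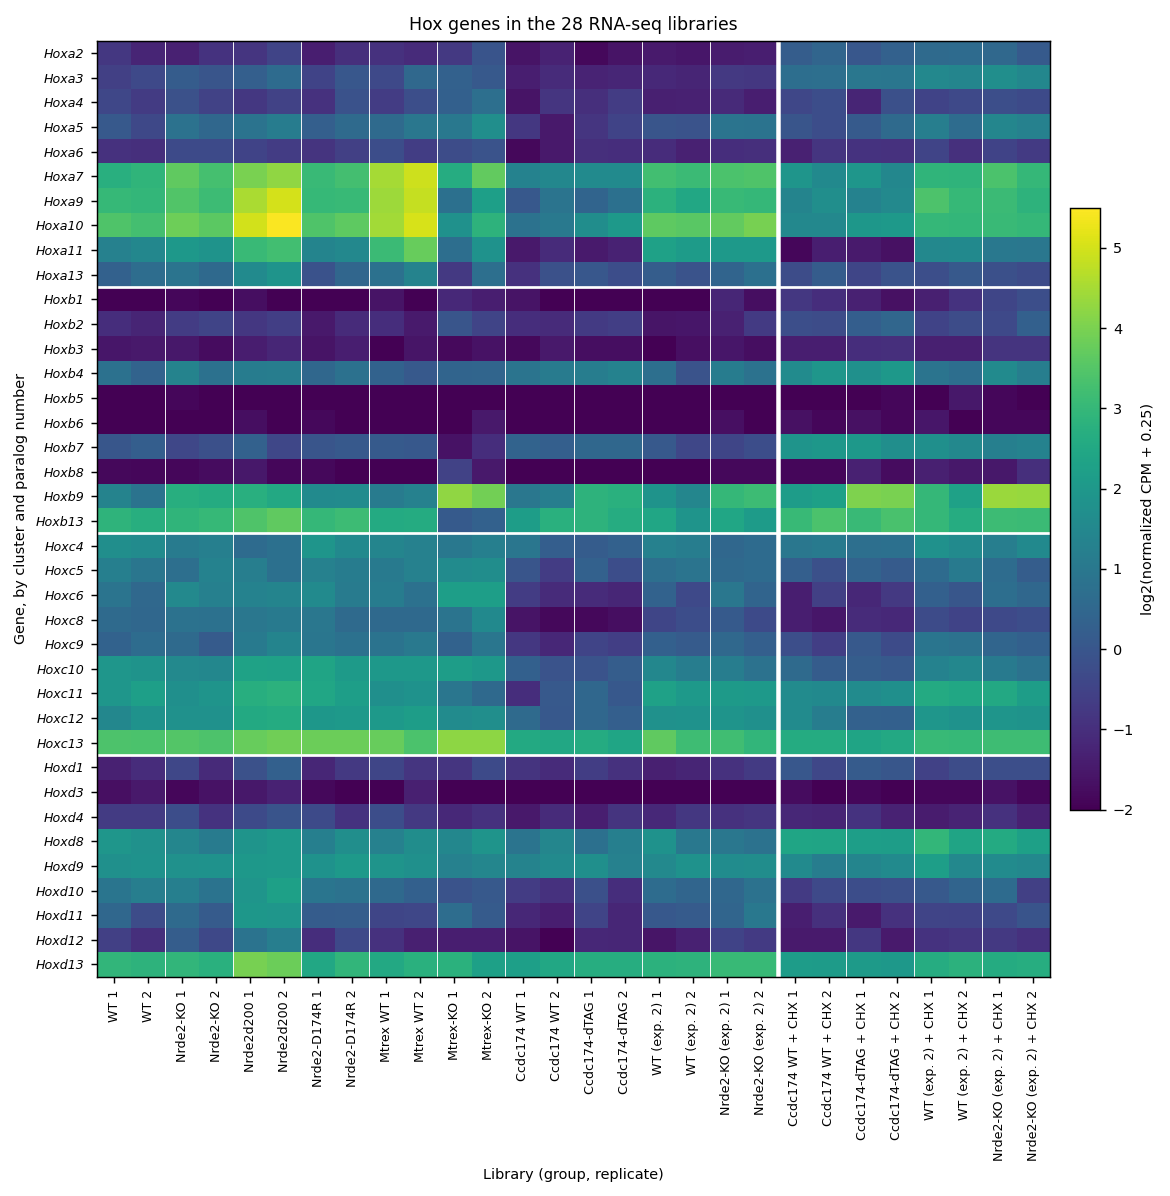
Level of 38 Hox genes (rows, by cluster and number) in each of the 28 RNA-seq libraries (columns, the 8 with CHX at the right), as log2(normalized CPM + 0.25). The genes Hoxb5, Hoxb6 and Hoxd3 were dark in all groups, and Hoxc8 was dark in the *Ccdc174* line.

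*Hoxb9* was the Hox gene that rose whenever NRDE2, MTREX or CCDC174 was lost or NRDE2 was truncated. It encodes a paralog group 9 factor that helps to pattern the thorax. *Hoxb9* was at 2.32 and 1.55 in WT and at 6.22 and 5.90 in *Nrde2*-KO. It was at 3.33 and 2.46 in WT and at 7.76 and 8.63 in *Nrde2*-KO of the second experiment. The groups did not overlap in either experiment, and the lowest KO library was above every WT library of both.

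In *Nrde2*-KO, *Hoxb9* rose with a log2 fold change of 1.55 (SE 0.19, limma adjusted p = 1.44e-05) and in the second experiment with 1.44 (SE 0.19, adjusted p = 2.71e-05). It was the only Hox gene of 26 called in either, where 3.02% and 2.4% of all 14889 genes were called up. None was called down. Over the 26 genes the median log2 fold change was 0.20 and 0.15, against 0.005 and 0.006 over all genes.

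*Hoxb9* was at 6.44 and 5.53 in *Nrde2d200* cells, close to *Nrde2*-KO and not overlapping the shared WT libraries. In *Nrde2-D174R* cells it was at 2.73 and 2.83, above both WT values but with a log2 fold change of 0.50 (SE 0.19, limma adjusted p = 0.194), which was not called. It was at 7.01 and 6.57 in *Ccdc174-dTAG* against 1.72 and 2.06 in its WT. The largest difference was in *Mtrex*-KO, at 18.7 and 14.6 against 1.93 and 2.21.

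In *Ccdc174-dTAG*, where 0.228% of all genes were called up, *Hoxb9* was again the only Hox gene called (log2 fold change 1.72, SE 0.19, limma adjusted p = 9.82e-06). In *Mtrex*-KO its log2 fold change was 2.86 (SE 0.19, adjusted p = 1.03e-09), an 8.04-fold difference of means. With CHX on both sides, *Hoxb9* was at 20.4 and 20.04 in *Nrde2*-KO against 7.68 and 4.66 in WT, and at 16.3 and 15.7 in *Ccdc174-dTAG* against 4.19 and 4.59. These were log2 fold changes of 1.71 (adjusted p = 4.03e-05) and 1.81 (adjusted p = 0.000115). Of all genes, 2.82% were called up in *Nrde2*-KO with CHX and 0.207% in *Ccdc174-dTAG* with CHX.

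Across the 6 comparisons of loss that share no control library, *Hoxb9* was the only gene of 14258 tested in all of them that was called up in all 6, while 10 genes were called down in all 6. Of the 14258 genes 24 were Hox genes. The 6 comparisons came from the *Nrde2*, *Mtrex* and *Ccdc174* lines, and the *Nrde2* and *Ccdc174* lines were used more than once. They are therefore not 6 independent tests. The *Hoxb9* calls of all 7 RNA-seq comparisons, the truncation included, were kept under each of the 15 alternatives run for each of them.

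**Figure D3:**
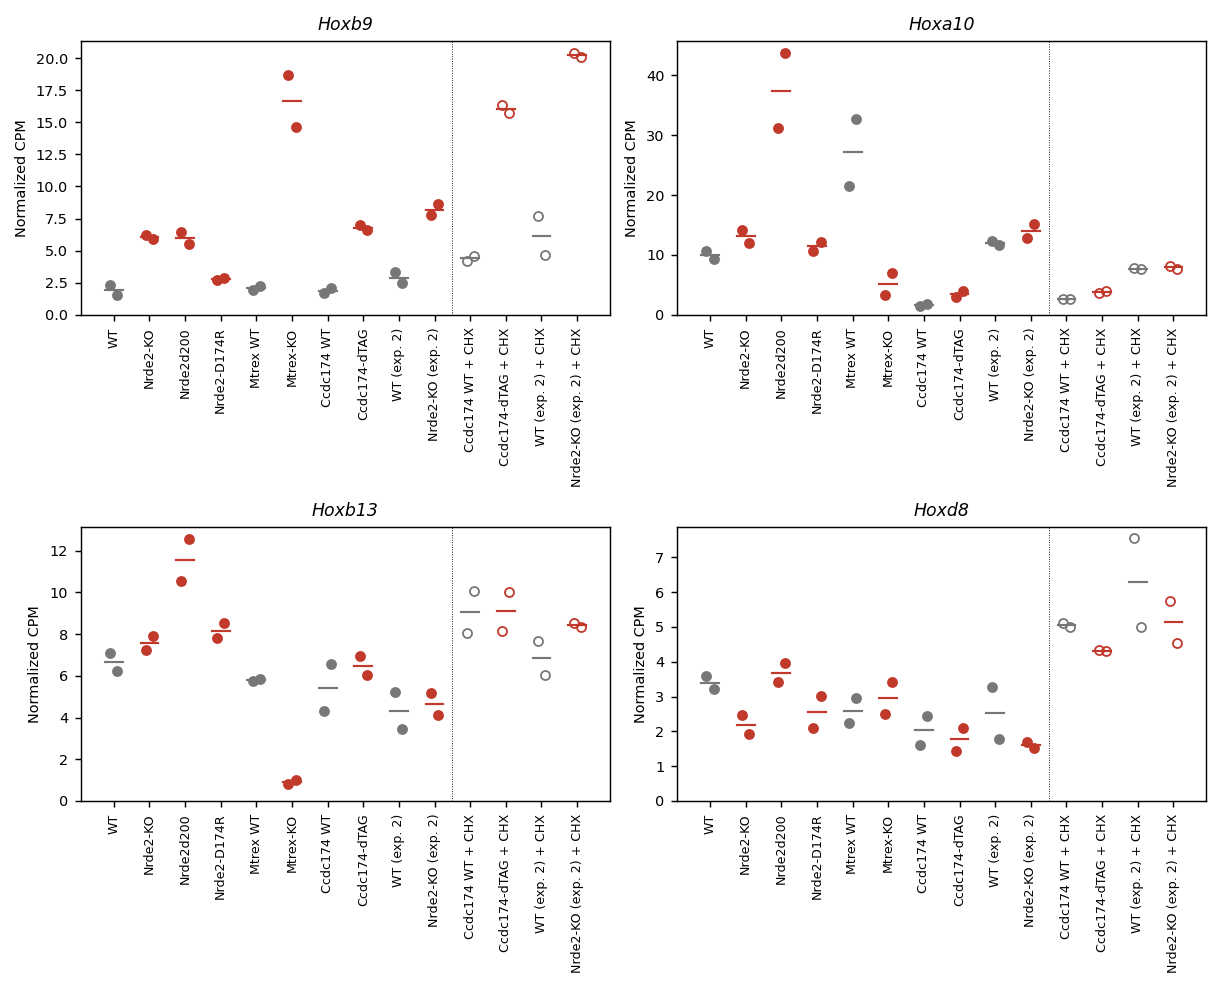
Normalized CPM of Hoxb9, Hoxa10, Hoxb13 and Hoxd8 in each library of the 14 RNA-seq groups, on linear axes from 0. Each point is 1 library, open where CHX was given, grey for WT and red for altered cells, and a short line marks the mean of the 2. Hoxb9 was above its WT in every group of loss, Hoxa10 and Hoxb13 were low in *Mtrex*-KO, and Hoxd8 was higher with CHX than without it in each background.

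Under *Nrde2* loss the other Hox genes moved little. The 25 other tested members were not called in either experiment without CHX, and of these 6 each time had an unadjusted p below 0.05, against 41.4% and 41.5% of all genes. *Hoxa5*, at 0.814 and 0.517 in WT and at 1.52 and 1.17 in *Nrde2*-KO, had log2 fold changes of 0.81 and, in the second experiment, 0.92, with limma adjusted p of 0.0385 and 0.0202. *Hoxc4*, the most anterior Hoxc gene, was at 3.04 and 2.82 in WT and at 1.92 and 2.12 in *Nrde2*-KO (log2 fold change -0.48, adjusted p = 0.098), and at 2.22 and 2.04 and at 1.18 and 1.30 in the second experiment (-0.67, adjusted p = 0.0245).

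The *Nrde2d200* line had a different pattern, with higher posterior Hoxa genes. *Hoxa7* was at 15.7 and 18.7 against 6.33 and 7.21 in WT. *Hoxa9* was at 23 and 32.1 against 7.81 and 7.49. *Hoxa10* was at 31.3 and 43.7 against 10.6 and 9.30. These are neighbouring genes, and none overlapped the *Nrde2* WT. *Hoxa11*, a limb and reproductive tract regulator, was at 8.30 and 9.16 against 2.20 and 2.53, and *Hoxd11*, its paralog, was at 3.64 and 3.58 against 1.18 and 0.594. These Hoxa genes also differed between WT lines. In *Mtrex* WT *Hoxa7* was at 22.0 and 30.0, above *Nrde2d200*. *Hoxa9* was there at 21.05 and 28.7, *Hoxa10* at 21.6 and 32.7 and *Hoxa11* at 8.35 and 13.1, each overlapping *Nrde2d200*.

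With *Hoxb9*, 6 of 26 Hox genes rose in *Nrde2d200* and none fell, where 1.58% of all genes were called up. The log2 fold changes ran from 1.32 for *Hoxa7* (SE 0.24, limma adjusted p = 0.0014) to 1.87 for *Hoxa10* (SE 0.26, adjusted p = 0.000161). The *Hoxa7* and *Hoxa9* calls were lost without either WT replicate, and that of *Hoxd11* without WT replicate 2. The median over the 26 was 0.75, against -0.005 for all genes, and 23 of the 26 were above 0. Just short of the fold limit were *Hoxd13*, at 15.2 and 13.8 against 7.35 and 6.90 (1.00 after rounding, adjusted p = 0.00116), and *Hoxc4*, at 1.27 and 1.44 against 3.04 and 2.82 (-0.98, adjusted p = 0.00492). Without *Nrde2d200* replicate 2, 3 Hox genes were called.

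In *Nrde2-D174R* cells limma called none of the 26 Hox genes, where 0.215% of all genes were called in either direction. At an unadjusted p below 0.05 there were 3, against 17.6% of all genes, and edgeR and DESeq2 also called 0. *Hoxa10* was at 10.7 and 12.2, and *Hoxa7* at 8.15 and 9.399.

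**Figure D4:**
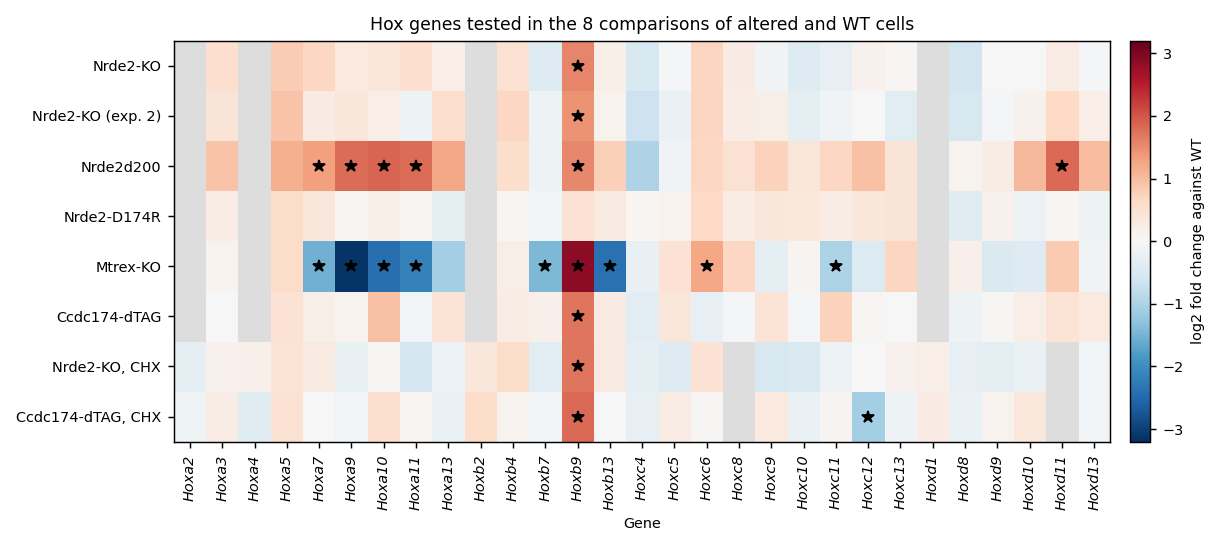
Log2 fold change (colour) of tested Hox genes (columns) in the 8 RNA-seq comparisons of altered cells with their WT (rows), with a star where the gene was called and grey where it was not tested. The Hoxb9 column has a star in every row but *Nrde2-D174R*, and the Hoxa7 to Hoxa11 columns are raised in *Nrde2d200* and lowered in *Mtrex*-KO.

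*Mtrex*-KO changed Hox genes in both directions. With 15.8% of all genes called up and 10.9% called down, 3 of 26 Hox genes rose and 7 fell. The *Hoxa7* to *Hoxa11* genes fell, and *Hoxa13* was not called (log2 fold change -1.08, limma adjusted p = 0.0193). *Hoxa9* was at 1.46 and 4.49 against 21.05 and 28.7 in its WT, and *Hoxa10* was at 3.23 and 6.93 against 21.6 and 32.7. *Hoxa11* was at 1.39 and 3.31 against 8.35 and 13.1. For each of them the lower value was that of *Mtrex*-KO replicate 1, and the groups did not overlap. *Mtrex* WT was the WT line with the highest *Hoxa7* to *Hoxa11*. *Mtrex*-KO overlapped the first *Nrde2* WT for *Hoxa7*, there at 6.33 and 7.21, and for *Hoxa11*, there at 2.20 and 2.53. It lay below that WT for *Hoxa9*, there at 7.81 and 7.49, and for *Hoxa10*, there at 10.6 and 9.30.

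The *Hoxa9* change was -3.13 on the log2 scale (SE 0.34, limma adjusted p = 3.84e-07), that of *Hoxa10* -2.42 and that of *Hoxa11* -2.15. *Hoxa7*, at 6.00 and 12.7 against 22.0 and 30.0, fell by 1.53, a call lost with only the compared groups in the fit. *Hoxb13*, the most posterior Hoxb gene, was at 0.832 and 1.00 against 5.76 and 5.86 (log2 fold change -2.38, adjusted p = 2.08e-08). *Hoxb7* was at 0.0694 and 0.242 against 0.843 and 0.793, and *Hoxc11* at 1.66 and 1.24 against 3.10 and 3.26 (-1.02, adjusted p = 0.00294). *Hoxb7* had only 2 and 7 reads in *Mtrex*-KO, and both calls were lost with 1 CPM added before the log2. The *Hoxc11* call was also lost with only the compared groups in the fit, and without either *Mtrex* WT replicate or *Mtrex*-KO replicate 2.

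*Hoxc6*, like *Hoxb9*, rose in *Mtrex*-KO. *Hoxc6* was at 4.40 and 4.38 against 1.96 and 1.501 (1.24, adjusted p = 0.00052), a call lost with 1 CPM added before the log2. *Hoxb9* and *Hoxb13* lie in the same cluster and moved in opposite directions. In CPM as deposited, where the median of all genes was at -0.38, the *Hoxc6* call was not kept, the Hox calls were 1 up and 8 down, and 34.1% of all calls were up instead of 59.3%. Without *Mtrex*-KO replicate 1, 9 Hox genes were called, 3 up and 6 down, and *Hoxa7* was not among them.

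Markers of other cell types also moved in *Mtrex*-KO. The 5 trophectoderm markers summed to 441 to 479 normalized CPM against 55.8 to 93.0 in its WT, with 3 of the 4 tested called up, and *Elf5* was below 0.5 throughout. Primitive streak and posterior mesoderm markers summed to 18.8 to 24.7 against 35.2 to 38.97, with 1 of 5 tested called up, 2 down, and *Tbx6* and *Msgn1* below 0.5. This list and the trophectoderm list share *Cdx2* and *Eomes*, so *Cdx2*, which rose, counts in both. Neural markers summed to 128 to 148 against 58.6 to 65.9 (1 of 2 tested up) and endoderm markers to 12.3 to 13.4 against 9.24 to 9.35 (1 of 3 up). Of the 2 fibroblast markers tested 1 rose and 1 fell, with sums of 2.59 to 3.16 against 2.15 to 3.70. Pluripotency markers summed to 4580 to 5445 against 6043 to 6198 (1 of 8 down). Their part in the Hox changes was not tested.

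In Ribo-seq, which reads fragments protected by ribosomes, Hox genes were near the limit of depth. All 39 together had 627 reads in 4 libraries and 4 had none. *Hoxc13* had the most reads, 46 in each WT library and 34 and 41 in *Nrde2*-KO. The exon lengths used here include untranslated bases, so Ribo-seq levels of different genes are not compared per kb. *Hoxb9* had 10 and 5 reads in WT and 14 and 26 in *Nrde2*-KO, or 1.30 and 0.665 against 2.51 and 3.37 normalized CPM. *Hoxb13* had 8 and 8 against 22 and 25 reads, or 1.04 and 1.06 against 3.94 and 3.24 normalized CPM.

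Both genes were called up in Ribo-seq, with log2 fold changes of 1.41 for *Hoxb9* (SE 0.39, limma adjusted p = 0.00735) and 1.55 for *Hoxb13* (SE 0.34, adjusted p = 0.00133), where 3.62% of all 13857 genes were called up. Only 8 Hox genes were tested, and *Hoxa7* and *Hoxb4* passed the filter only through the *Nrde2*-KO libraries. Both calls were lost with DESeq2 or without the filter. *Hoxb13* mRNA was at 7.08 and 6.25 in WT and at 7.23 and 7.90 in *Nrde2*-KO, and was not called. Ribosome occupancy relative to mRNA was not tested.

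With CHX *Hoxb7* and *Hoxd8* were called up in all 4 backgrounds, and so were *Hoxa2* and *Hoxa3*, which passed the filter only through the libraries with CHX and so had to be higher there. *Hoxa2* and *Hoxa3* were at most at 0.165 and 0.342 in the untreated libraries of these experiments and between 0.779 and 1.30 and between 1.38 and 3.02 with CHX. *Hoxa3* had 7 and 6 reads in untreated WT of the *Nrde2* line and 109 and 100 with CHX. *Hoxb7* was between 0.497 and 1.17 untreated and between 2.09 and 3.74 with CHX, and *Hoxd8* between 1.44 and 3.27 and between 4.30 and 7.56. These genes and *Hoxb9* did not overlap between treatments within any background. The *Hoxb7* log2 fold changes were 1.77 in *Nrde2* WT, 1.59 in *Nrde2*-KO, 1.59 in *Ccdc174* WT and 1.34 in *Ccdc174-dTAG* (each SE 0.19, largest limma adjusted p = 2.69e-05), and these calls were kept under each alternative run for them.

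*Hoxb9* was also called up in all 4 backgrounds, but its call in *Nrde2* WT was lost in 5 of 15 alternatives, with a log2 fold change down to 0.66, among them leaving out untreated replicate 2 or CHX replicate 1. With 1 CPM added before the log2 its call in *Ccdc174* WT was lost too, as were those of *Hoxa2* outside *Nrde2* WT and that of *Hoxd8* in *Ccdc174-dTAG*. The *Hoxd8* call in *Nrde2* WT was lost without either of these libraries too, and those in *Ccdc174* WT and *Ccdc174-dTAG* without untreated replicate 1 of each. In at least 1 background 11 Hox genes were called up. Of 27 Hox genes tested, 8 rose in *Nrde2* WT, where 11.2% of all genes were called up, and 6 rose and 1 fell in *Nrde2*-KO, where 10.9% were called up and 3.17% down. In *Ccdc174* WT 10 rose (12.6% of all genes) and in *Ccdc174-dTAG* 9 (11.9%). *Hoxb2*, like *Hoxa2* and *Hoxa3*, passed the filter only through the libraries with CHX. Over the untreated libraries of these 2 experiments 24 of the tested Hox genes passed the filter. Of these, 5, 4, 8 and 6 rose in the same order, against 8.49, 8.37, 9.81 and 9.01% of all genes that passed there. Their median log2 fold changes were 0.16, -0.05, 0.53 and 0.32.

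Among posterior Hoxa and Hoxc genes the values went both ways. *Hoxa11* was at 3.79 and 3.90 in *Nrde2*-KO and at 1.77 and 1.72 with CHX, and it fell (log2 fold change -1.04, SE 0.21, limma adjusted p = 0.000538), a call not kept in CPM as deposited. *Hoxa10* was at 12.3 and 11.7 in *Nrde2* WT and at 7.80 and 7.63 with CHX, and in *Ccdc174* WT at 1.53 and 1.81 and at 2.61 and 2.56. *Hoxc11* was called up in the *Ccdc174* line, from 0.246 and 0.824 to 2.81 and 2.72 in WT and from 1.16 and 0.788 to 2.81 and 3.10 in *Ccdc174-dTAG*. In *Nrde2* WT it was at 4.67 and 3.92 and at 5.72 and 5.31. Whether the CHX effect differed between lines was not tested. In CPM as deposited the median of all genes with CHX lay at 0.20 to 0.24, and in *Nrde2*-KO 88.1% of calls were then up instead of 77.4% and in *Ccdc174-dTAG* 92.2% instead of 81.6%.

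**Figure D5:**
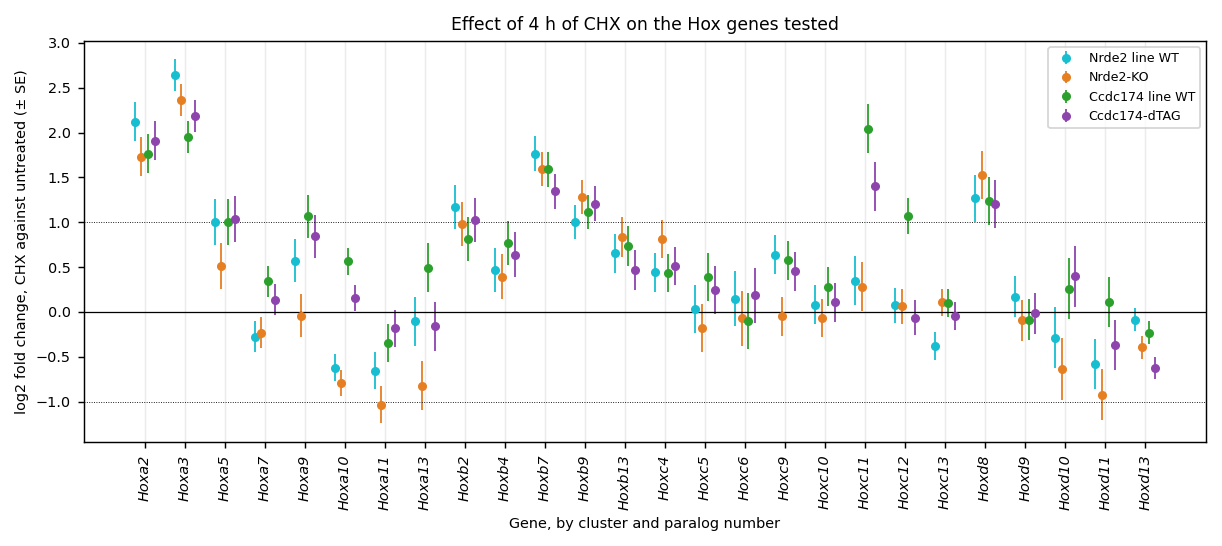
Log2 fold change of CHX against untreated cells (vertical axis) for 26 tested Hox genes, by cluster and number. Points are the estimates in 4 backgrounds (colours), bars are 1 SE, and dotted lines mark a change of 1 in either direction. The Hoxa2 and Hoxa3 estimates lay above 1 in all 4 backgrounds, but in this fit both genes passed the filter only through the libraries with CHX. The Hoxa11 estimate lay below -1 in *Nrde2*-KO.

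Other members changed with CHX in some backgrounds. *Hoxa5* rose in *Nrde2* WT, from 0.729 and 0.689 to 2.08 and 1.33, and in both *Ccdc174* groups, with log2 fold changes of 1.00 to 1.04 that lay at the fold limit. *Hoxb2*, which passed the filter only through the libraries with CHX, rose in *Nrde2* WT and in *Ccdc174-dTAG*. *Hoxa9* and *Hoxc12* rose in *Ccdc174* WT. Each of these calls was lost with 1 CPM added before the log2, and each when some single library was left out. The *Hoxb2* call in *Ccdc174-dTAG* was also lost without the filter and with DESeq2. *Hoxb1*, which was too low to be tested, had 0 to 6 reads in the 8 untreated libraries and 3 to 25 in the 8 with CHX. No library held more than 4 reads of *Hoxb5* or of *Hoxb6*.

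No difference in the CHX effect between altered and WT cells was called for any of the 27 Hox genes by limma, edgeR or DESeq2, where limma called 0.172% of all genes in the *Nrde2* experiment and 0.0727% in the *Ccdc174* experiment. By limma 3 Hox genes had an unadjusted p below 0.05 in each, against 14.8% and 9.67% of all genes. For *Hoxb9* the differences were 0.28 (SE 0.27) and 0.09 (SE 0.27). *Hoxc12* was the only Hox gene that fell with *Ccdc174-dTAG* under CHX, where 0.704% of all genes were called down, at 1.00 and 0.988 against 2.83 and 2.00 (log2 fold change -1.08, SE 0.18, adjusted p = 0.00234). That call was lost without the filter, with 1 CPM added before the log2, with only the compared groups in the fit, and when *Ccdc174* WT replicate 1 or either *Ccdc174-dTAG* replicate was left out.

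Promoters are shown for *Hoxa2* and *Hoxd8*, both called up with CHX in all 4 backgrounds. *Hoxa2* passed the filter only through the libraries with CHX. Each promoter is the 250 bases before the RefSeq start in GRCm38, in the direction of the gene. Capitals mark matches on either strand to CCAAT, the CCAAT box, or to TGATNNAT, a motif of the Hox cofactors. The promoter of *Hoxb9* is not shown.
Hoxa2, chr6:52164832-52165081, minus strand: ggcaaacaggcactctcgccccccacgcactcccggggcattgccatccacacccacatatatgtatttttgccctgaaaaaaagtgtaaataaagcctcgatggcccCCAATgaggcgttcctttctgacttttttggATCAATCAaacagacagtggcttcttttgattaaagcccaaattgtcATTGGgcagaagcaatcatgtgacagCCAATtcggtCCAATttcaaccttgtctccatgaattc
Hoxd8, chr2:74704365-74704614, plus strand: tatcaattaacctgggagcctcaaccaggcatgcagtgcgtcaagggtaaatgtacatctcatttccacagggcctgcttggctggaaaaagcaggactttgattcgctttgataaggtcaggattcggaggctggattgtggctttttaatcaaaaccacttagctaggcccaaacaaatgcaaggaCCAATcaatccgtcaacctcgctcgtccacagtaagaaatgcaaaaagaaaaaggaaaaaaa

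Of 24 promoter windows of 22 Hox genes, 14 held CCAAT, against 33.8% of 32851 windows of all genes, and 4 held TGATNNAT, against 7.68%. TATAAA was in 4 (12.4% of all), TGANTCA in 1 (6.75%) and TGACGTCA in none (1.55%), with both strands searched. The Hox windows had a median of 12.5 CG dinucleotides, against 6.0 over all windows.

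Genes that act with the Hox proteins or upstream of them were counted from fixed lists, and their counts in *Mtrex*-KO stand beside 15.8% of all genes called up and 10.9% called down. Of 9 TALE homeodomain cofactors, which bind DNA together with Hox proteins, all were tested. *Meis3* and *Pknox2* fell in *Mtrex*-KO, and *Pbx4* rose in Ribo-seq. In *Nrde2d200* 1 of the 9 rose, where 1.58% of all genes were called up. With CHX, 3 to 4 of the 9 rose in each background, where 10.9 to 12.6% of all genes were called up. *Pbx3*, *Pknox2* and *Meis1* rose in all 4 backgrounds. *Meis1* went from 3.68 and 3.26 to 9.76 and 8.45 in *Nrde2* WT.

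Of 6 upstream regulators, 3 were tested without CHX. *Cdx2*, an activator of posterior Hox genes and also a trophectoderm gene, was at 0.723 and 1.06 in WT and at 3.04 and 2.17 in *Nrde2*-KO (log2 fold change 1.32, limma adjusted p = 0.00149). It also rose in the second experiment (1.36) and in *Mtrex*-KO (1.58), and it was not called in *Nrde2d200*, at 1.73 and 0.988. *Cdx1* fell in *Mtrex*-KO (-2.45). *Egr2*, a hindbrain regulator, passed the filter only through the libraries with CHX and so had to be higher there, at 1.17 and 1.67 against 0.117 and 0 in *Nrde2* WT.

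Few Polycomb and trithorax genes were called outside *Mtrex*-KO. Of 12 Polycomb complex 2 genes, *Phf1* rose in the first *Nrde2*-KO experiment and was not called in the second. *Phf19* fell in *Nrde2d200* and *Epop* fell in *Mtrex*-KO. Of 20 Polycomb complex 1 genes, 3 (*Bmi1*, *Pcgf5* and *Scmh1*) rose in *Mtrex*-KO, near the share of all genes, and 1, *Cbx2*, fell. *Scmh1* also rose in Ribo-seq. Of 13 trithorax genes 3 rose in *Mtrex*-KO (*Kmt2a*, *Kmt2d* and *Kdm6b*) and 1, *Dpy30*, fell. In the retinoic acid pathway 10 of 17 genes were tested, and 5 rose (*Rdh10*, *Rxra*, *Crabp2*, *Aldh1a3* and *Rarg*) and 2 fell (*Crabp1* and *Stra8*) in *Mtrex*-KO. *Crabp2*, which encodes a retinoic acid carrier, fell in the first *Nrde2*-KO experiment and was not called in the second without CHX. With CHX *Epop*, the Polycomb gene *Cbx6* and the retinoic acid receptor gene *Rarg* fell in all 4 backgrounds.

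Genes outside the Hox clusters also changed with CHX. Of 7 immediate early genes tested, 5 to 6 rose in each background, where 10.9 to 12.6% of all genes were called up. Only 6 of the list were tested over the 20 libraries without CHX. A gene that passed the filter only through the libraries with CHX had to be higher there. In *Mtrex*-KO 4 of 6 rose, against 15.8% of all genes. Neural markers summed to 188 to 198 normalized CPM in *Nrde2* WT with CHX against 100 to 103 untreated, with 1 of 3 tested called up. *Nes* had the highest level of that list, of which only 2 were tested over the libraries without CHX. Endoderm markers summed to 11.3 to 11.5 against 6.41 to 7.59, and fibroblast markers to 3.81 to 4.09 against 2.54 to 2.67. Primitive streak and posterior mesoderm markers summed to 20.1 to 26.5 against 48.6 to 58.5. Trophectoderm markers summed to 43.5 to 48.1 against 76.7 to 88.3, and pluripotency markers to 3703 to 3710 against 5582 to 5769. Their part in the Hox changes was not tested.

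Genes at the borders of the clusters gave the closest neighbour of *Hoxb9* that moved with it. Of 18 such genes found, 15 were tested. *Ttll6*, which encodes a tubulin glutamylase and ends 106006 bases upstream of *Hoxb9*, was at 9.16 and 6.92 in WT, at 26.5 and 22.7 in *Nrde2*-KO and at 21.04 and 23.2 in *Nrde2d200*. It rose in both *Nrde2*-KO experiments, in *Nrde2d200*, in *Mtrex*-KO and in Ribo-seq, and was not called in *Ccdc174-dTAG*, at 6.95 and 6.79 against 4.95 and 4.40. *Hoxb13* lies between *Ttll6* and *Hoxb9* and was not called in *Nrde2*-KO.

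Of 22 noncoding genes listed for the clusters 6 were tested, 1 of which lies on chromosome 5 in the annotation and is not described. *Hoxa11os*, which overlaps *Hoxa11* on the other strand, was at 3.06 and 3.36 in *Nrde2d200* against 0.603 and 0.594 in WT (log2 fold change 2.03, limma adjusted p = 0.000216). It fell in *Mtrex*-KO, from 1.93 and 3.23 to 0.624 and 1.17, as *Hoxa11* did in both comparisons. *Hoxaas3*, an antisense gene of the Hoxa cluster, was at 5.55 and 6.07 in *Mtrex*-KO against 0.381 and 0.425 (3.21, adjusted p = 3.8e-07). Reads were counted on the correct strand only.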

How the data were processed

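RNA-seq (28 libraries) and Ribo-seq (4 libraries) were used. Alignment by the authors was to mm10 with STAR (2.7.0a and 2.7.3a in the submitters' processing notes). The authors counted uniquely mapped reads on the correct strand per GENCODE M23 gene with featureCounts and deposited CPM. Ribo-seq reads were also trimmed and collapsed. Of the deposited CPM values, 100% were whole multiples of what 1 read is worth (tolerance 0.1 read), which gave back the reads.

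Gene names came from GENCODE M21, which held 55154 of 55335 identifiers, leaving 181. CPM was divided by median-of-ratios size factors, fixed over the RNA-seq and over the Ribo-seq libraries. Groups were compared with limma 3.58.1 (R 4.3.3, trend) on log2(normalized CPM + 0.25), on which fold changes of low genes are understated. P-values were adjusted over all tested genes. Fits used the 20 libraries without CHX, the 8 with CHX, the 16 of both CHX experiments, or the 4 Ribo-seq libraries. edgeR 4.0.16 and DESeq2 1.42.0 on recovered reads, scaling, filters, pseudocounts, a replicate block and each library left out were alternatives. Size factors of the fitted libraries were added after seeing the data. The tests were tested on simulated data.

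Groups came from the labels. The members and lists were chosen with earlier results of these data known. For every library, 38 Hox genes are drawn, and 1 is not reported here. Values are printed for called members, for others by range or count, and list genes are named only where called, not all of them. The junctions and promoters are RefSeq sequences of GRCm38.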

Additional observations from a re-analysis of the deposited data

Results flagged for a closer look

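*Egr2*, a hindbrain regulator from the list of upstream regulators, responded more to CHX in *Nrde2*-KO than in WT, by 2.21 on the log2 scale (limma adjusted p = 0.0098, 2 libraries per group). It was at 7.35 and 6.11 normalized CPM in *Nrde2*-KO with CHX and at 1.17 and 1.67 in WT with CHX, and at most at 0.117 in the untreated libraries of both. It was below 0.5 in every library without CHX and passed the filter only through those with CHX, so a rise with CHX was fixed by the filter and the difference rests on the libraries with CHX.

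For *Hoxa10*, *Hoxa7* and *Hoxc13* both libraries with CHX lay below both untreated ones in *Nrde2* WT and above them in *Ccdc174* WT. No tested Hox gene was split in opposite directions in this way between *Nrde2*-KO and *Ccdc174-dTAG*. How many of all genes were so split was not counted, and 2 libraries against 2 can separate by chance. The CHX effect in *Nrde2* WT minus that in *Ccdc174* WT was -1.18 for *Hoxa10*, -0.62 for *Hoxa7* and -0.48 for *Hoxc13* on the log2 scale. These differences were not tested, and line and experiment cannot be told apart.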

How the results depend on the processing

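Of 231 recomputed counts of called Hox genes, 208 stayed within 1.5 times the count reported, and no result changed direction. With 1 CPM added before the log2, the count was 6 in *Mtrex*-KO, 1 in *Ccdc174-dTAG* with CHX, and 5 each for the CHX effect in *Nrde2* WT, *Ccdc174* WT and *Ccdc174-dTAG*. DESeq2 called 10 Hox genes in *Nrde2d200*, 2 in *Ccdc174-dTAG* and 0 in Ribo-seq. With only the compared groups in the fit the count was 11 in *Nrde2d200* and 1 in *Ccdc174-dTAG* with CHX. Without the filter it was 1 in *Ccdc174-dTAG* with CHX and 0 in Ribo-seq. The cause was not tested. Over all genes, edgeR on the recovered reads called 511 up and 321 down in *Nrde2*-KO, against 450 and 295 by limma.

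With single libraries left out the counts ranged from 3 to 6 in *Nrde2d200* (lowest without its replicate 2), 1 to 2 in *Ccdc174-dTAG* (2 without WT replicate 2), 1 to 2 with CHX (1 without WT replicate 1 or either *Ccdc174-dTAG* replicate), 1 to 2 in *Nrde2*-KO with CHX (2 without WT replicate 1 or *Nrde2*-KO replicate 2), 1 to 2 in Ribo-seq (1 without either *Nrde2*-KO replicate) and 5 to 7 for the CHX effect in *Nrde2* WT (5 without untreated replicate 2 or CHX replicate 1). A lone library was assumed to vary like the other groups.

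Replicate numbers are shared between groups, but the labels do not say what they mark, and the correlation of same-numbered libraries lay between -0.03 and 0.402. With a replicate block 11 Hox genes were called in *Mtrex*-KO and 3 in Ribo-seq, and every other count was as without it. In Ribo-seq CPM as deposited, 75.5% of all calls were up instead of 56.4%. The *Hoxb9* rise with CHX in *Nrde2* WT was lost in 5 of 15 alternatives, among them TMM factors. With 2 libraries per group and few Ribo-seq reads, small changes were not detectable.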
